A study of Mus musculus with 9 samples.

Results

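Chromatin accessibility was compared between D2A1-d cells that carried the short hairpin shMed4 #1 and D2A1-d cells with a non-targeting hairpin as control (NTC). The comparison rests on 6 of the 9 libraries of the study, 3 with shMed4 #1 and 3 with NTC, and on all 146,734 peaks of the deposited table. The other 3 libraries carried a second hairpin, shMed4 #4, and entered the shared estimate of the spread, the centring of library levels, 1 ranking of peaks by height and values set beside those of shMed4 #1. D2A1-d is a mouse breast carcinoma line. NTC cells are labelled wild type and shMed4 cells are labelled Med4 knockdown, and neither group had any other treatment. Libraries are labelled biological replicates, but no label says whether each had its own transduction or culture, so p-values cover only the spread among these libraries, which may be technical.

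ATAC-seq uses a transposase that cuts and tags open DNA, and read numbers in a peak follow how often that stretch was open in the cells sampled. Promoters of active genes are usually open in many cell types, whereas enhancers, most of which lie away from gene starts, differ more between cell states. Med4 belongs to the middle module of Mediator, the large complex that links transcription factors at enhancers to RNA polymerase II at promoters. A hairpin acts on the Med4 transcript, whose level ATAC-seq cannot read, so these data do not check the labels. A lower value in a peak can come from fewer cells with that site open or from a less open site in each cell, and these cannot be told apart here.

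The 6 libraries held 72.8 to 98.9 M reads in peaks, and the median peak had 175 to 247 reads. All peaks are 501 bp wide on the GRCm38 (mm10) assembly. Of 16 mammary and epithelial marker genes, 5 had a peak at their start: Krt18, Elf3, Elf5, Gata3 and Foxa1. The other 11, among them Epcam and Cdh1, had none, and the summed level was 3702 to 3810 normalised reads in NTC and 3922 to 4277 with shMed4 #1. Marker genes of other cells had start peaks for 6 of 12 immune, 3 of 10 endothelial, 3 of 10 fibroblast and pericyte, and 5 of 10 neural genes. Among those without one were Ptprc, the marker of all leukocytes, Pecam1 of endothelium and Rbfox3 of neurons. Other members of each list did have start peaks, so these 3 do not show that such cells were absent. Summed over each list, the NTC libraries held 4267 to 4409 normalised reads at immune markers and the shMed4 #1 libraries 3678 to 3880. At endothelial markers the sums were 484 to 506 in NTC and 653 to 733 with shMed4 #1. At fibroblast markers they were 2629 to 2765 and 2499 to 2605, and at neural markers 1107 to 1112 and 607 to 689. The groups did not overlap for any of these sums. Over all tested peaks, shMed4 #1 lay wholly above NTC at 31.2% and wholly below at 29.4%. By the calls described below, 2 mammary, 1 immune, 2 endothelial, 1 fibroblast and 0 neural markers were higher. Lower were 1, 3, 1, 1 and 4, in the same order. The sums thus rest on few peaks, which in most lists moved both ways. The part of such cells or programmes in the results below was not tested.

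The promoters of 7 genes whose start peaks are described below are shown here, 3 with gains, 3 with falls and that of the targeted gene, chosen after their values were seen. They are RefSeq sequences on GRCm38.p6, all on the plus strand, from 250 bases before to 50 bases after the annotated start. Capitals mark letters searched for on both strands, so a match on the minus strand appears as its reverse complement. The NF-Y letters CCAAT are marked in Spx, Sqor and Med4. The TATA box letters TATAAA are marked in Cavin4 and S100a8, and the AP-1 letters TGANTCA in Adam19. The TEAD letters CATTCC are marked in Adam19 and Sqor, the GC box GGGCGG in Adam19, Dnmt3b and Med4, and the ETS letters CCGGAAG in Med4. Spx lies at chr6:142413138-142413437, Cavin4 at chr4:48663264-48663563, Adam19 at chr11:46055734-46056033, Sqor at chr2:122771463-122771762, Dnmt3b at chr2:153649199-153649498, S100a8 at chr3:90668821-90669120 and Med4 at chr14:73509799-73510098.
Spx: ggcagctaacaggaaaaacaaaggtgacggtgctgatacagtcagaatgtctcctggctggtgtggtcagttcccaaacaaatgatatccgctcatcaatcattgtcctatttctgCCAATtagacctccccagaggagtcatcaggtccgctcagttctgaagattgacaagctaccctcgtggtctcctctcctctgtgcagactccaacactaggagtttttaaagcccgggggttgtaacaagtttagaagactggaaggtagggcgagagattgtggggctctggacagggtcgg
Cavin4: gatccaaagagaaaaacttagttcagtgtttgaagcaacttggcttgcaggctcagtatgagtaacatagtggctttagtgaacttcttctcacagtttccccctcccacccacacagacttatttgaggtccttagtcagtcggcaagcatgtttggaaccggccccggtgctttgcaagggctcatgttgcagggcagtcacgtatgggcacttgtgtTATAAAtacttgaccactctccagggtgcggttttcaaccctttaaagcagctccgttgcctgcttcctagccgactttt
Adam19: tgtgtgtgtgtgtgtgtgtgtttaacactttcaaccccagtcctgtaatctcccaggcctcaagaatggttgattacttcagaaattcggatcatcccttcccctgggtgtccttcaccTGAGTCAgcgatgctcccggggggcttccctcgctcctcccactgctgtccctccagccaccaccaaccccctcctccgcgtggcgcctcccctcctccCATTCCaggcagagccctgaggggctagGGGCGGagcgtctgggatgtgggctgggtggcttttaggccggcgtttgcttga
Sqor: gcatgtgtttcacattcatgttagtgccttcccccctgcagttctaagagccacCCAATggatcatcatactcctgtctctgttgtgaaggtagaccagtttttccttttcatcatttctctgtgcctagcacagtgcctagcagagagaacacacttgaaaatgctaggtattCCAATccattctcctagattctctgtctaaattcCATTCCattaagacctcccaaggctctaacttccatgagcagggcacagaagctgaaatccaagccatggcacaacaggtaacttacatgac
Dnmt3b: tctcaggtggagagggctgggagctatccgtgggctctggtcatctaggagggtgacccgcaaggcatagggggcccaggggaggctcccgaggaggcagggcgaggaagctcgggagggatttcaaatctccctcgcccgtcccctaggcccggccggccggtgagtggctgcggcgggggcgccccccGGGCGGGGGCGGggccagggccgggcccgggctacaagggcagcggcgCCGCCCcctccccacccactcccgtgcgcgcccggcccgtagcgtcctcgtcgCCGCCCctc
S100a8: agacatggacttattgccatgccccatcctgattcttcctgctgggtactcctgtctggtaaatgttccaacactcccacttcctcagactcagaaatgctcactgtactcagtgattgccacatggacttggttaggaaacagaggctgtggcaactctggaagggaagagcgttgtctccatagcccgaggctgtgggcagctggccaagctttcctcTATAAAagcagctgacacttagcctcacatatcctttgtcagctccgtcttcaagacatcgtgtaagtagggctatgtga
Med4: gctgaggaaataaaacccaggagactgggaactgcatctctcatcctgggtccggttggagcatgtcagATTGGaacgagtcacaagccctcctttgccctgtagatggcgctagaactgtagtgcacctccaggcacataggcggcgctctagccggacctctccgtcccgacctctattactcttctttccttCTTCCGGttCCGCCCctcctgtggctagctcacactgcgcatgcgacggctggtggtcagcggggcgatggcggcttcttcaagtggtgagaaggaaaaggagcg
These promoters differ in base composition. The Dnmt3b promoter held 30 CG dinucleotides and the Sqor promoter held 0, while Spx and Cavin4 held 7 each, Adam19 11, S100a8 4 and Med4 17. The TATAAA letters of Cavin4 and of S100a8 both begin 30 bases before the annotated start. The Sqor peak ends just before the window shown and shares 0 bases with it, and the other 6 peaks cover 232 to 300 of its 300 bases. A match is a description of the letters only.

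Over the listed peaks, changes of at least 2-fold with shMed4 #1 were mostly gains. Of 146,729 tested peaks, 77,395 (52.7%) were called at a limma adjusted p under 0.05, 40,871 higher (27.9%) and 36,524 lower (24.9%). At least 2-fold changes numbered 9,588 gains (6.53%) and 3,779 falls (2.58%). The 10% of peaks weakest in NTC held 3,838 of these gains and 150 of these falls, and the strongest 10% held 9 and 47. A weak site may be listed only because a hairpin group held it open, so this balance describes the listed peaks only. The 3 shMed4 #1 libraries all lay above the 3 NTC libraries at 31.2% of tested peaks and all below them at 29.4%. The share called was 46.7% to 49.1% when any 1 of the 6 libraries was left out. The balance of small changes moved with how libraries were scaled. Gains made up 52.8% of calls as reported, 66.7% when libraries were centred on the median level of gene-start peaks and 41.4% when centred on that of other peaks. Centring on the median deviation of gene-start peaks gave 67.4%. Under these settings the median log2 fold of all peaks moved by up to 0.10 from its reported -0.01.

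Gains and falls differed in their sizes. Among gains, 7,720 had a log2 fold under 0.32, 11,640 one from there to 0.58 (1.5-fold), 11,923 were from 1.5 to 2-fold, 8,014 from 2 to 4-fold and 1,574 over 4-fold. Among falls, the same classes held 9,737, 12,691, 10,317, 3,601 and 178 peaks. Changes over 4-fold were therefore 3.85% of gains and 0.487% of falls. The larger a gain, the weaker the peak was in the control: the median NTC value was 879 normalised reads for the smallest gains, 237, 122 and 82.1 for the next classes, and 46.5 for gains over 4-fold. Falls did not follow that order. Their median NTC values were 1109, 249 and 133 up to 2-fold, then 149 from 2 to 4-fold and 220 over 4-fold. Peaks that fell over 4-fold ended at a median of 42.7 normalised reads with shMed4 #1, close to where the largest gains began. These medians use the NTC values that also enter the fold, and so describe the calls only.

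The peaks weakest in the control stood apart from the rest. In the 10% of peaks weakest in NTC, at most 57.3 normalised reads, 47.8% were called higher and 4.08% lower, 26.2% were at least 2-fold higher, and the median log2 fold was 0.50. In the 10% strongest in NTC, from 1500 normalised reads up, 20.8% were called higher and 35.4% lower, with a median of -0.06. From the weakest to the strongest 10%, the shares called higher were 47.8%, 22.6%, 20.2%, 22.2%, 25.6%, 27.4%, 30.8%, 32.6%, 28.6% and 20.8%, so past the weakest they had no steady order. Only 9 peaks of the strongest rose at least 2-fold and 47 fell as far. The library median of the strongest 10% minus that of the weakest 10% was 0.449, 0.428 and 0.434 in NTC and -0.207, -0.194 and -0.062 with shMed4 #1, on the log2 scale centred over the 9 libraries. The groups did not overlap, and their difference was -0.59 (two-sided exact permutation p = 0.1 from 20 splits, the lowest that 3 against 3 allow). The same NTC libraries also ranked the peaks, which favours such a separation, so this p-value and the lack of overlap are not support for it.

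That contrast depended on which libraries ranked the peaks. With height taken from the mean of NTC and shMed4 #1, the weakest 10% had 21.8% higher, 18.6% lower and a median log2 fold of -0.01. With height taken from the shMed4 #4 libraries, it had 16.9% higher and 22.7% lower, with a median of -0.11, and the difference between strongest and weakest turned to 0.08. When NTC replicate 1 set the height and replicates 2 and 3 gave the fold, the difference was -0.54 and 25.0% of the weakest 10% rose at least 2-fold. In that setting, added after the data were seen, the ranking and the fold share no library. All libraries share the same list of peaks, however. A site nearly closed in NTC may be listed only because a hairpin group held it open. Ranking by any NTC library keeps that selection, whose part was not tested. The -0.54 thus describes the listed peaks only.

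**Figure D1:**
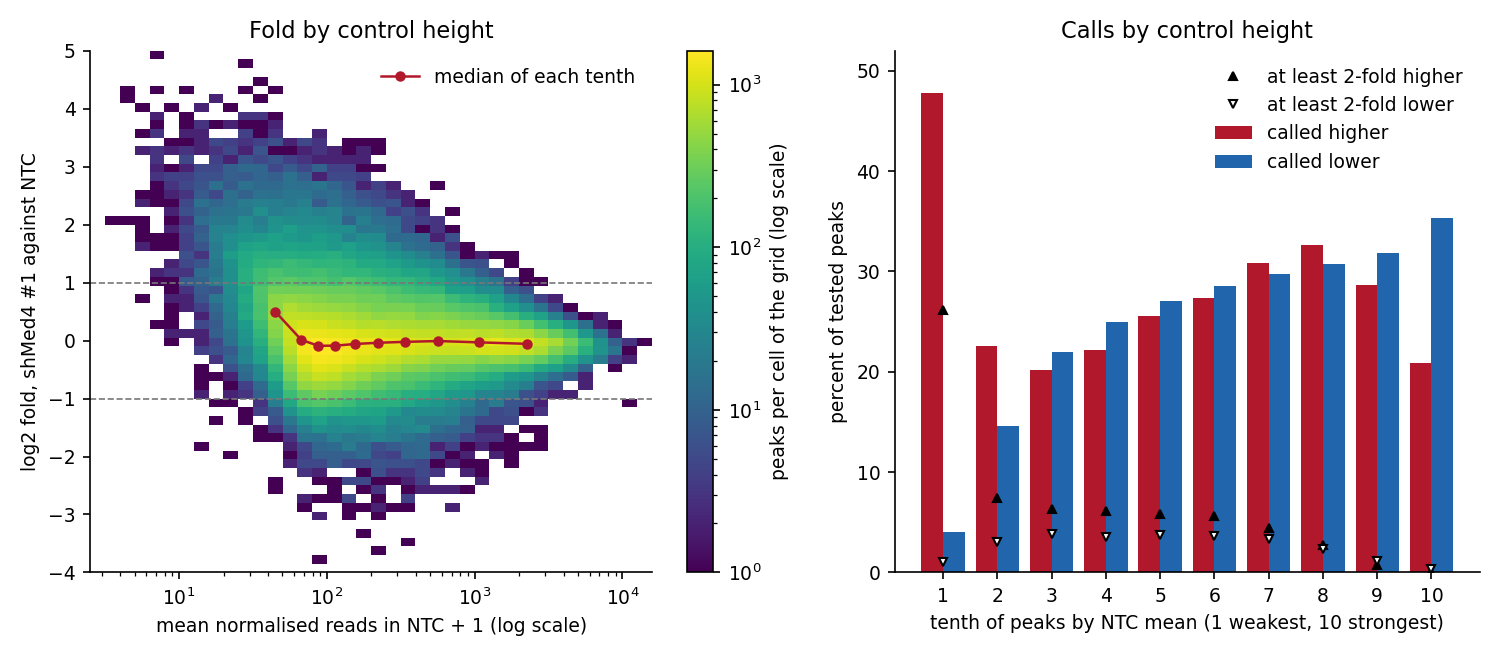
Left, number of tested peaks (colour, log scale) by mean normalised reads in NTC plus 1 (log axis) and log2 fold of shMed4 #1 against NTC, with the median of each 10% of peaks as points and 2-fold changes as dashed lines. Right, percent of each 10% called higher or lower (bars) and at least 2-fold (triangles): gains reach 47.8% in the weakest 10%, and falls 35.4% in the strongest.

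The largest gains went from weak to strong peaks. The naming limits were a mean of at least 50 normalised reads over the 6 libraries and a named protein-coding gene within 100 kb. Under them the largest gain was inside Ust, a sulfotransferase of dermatan and chondroitin sulfate, at chromosome 10, 8506244 to 8506745. Its NTC libraries held 25.8, 25.7 and 36.0 normalised reads and its shMed4 #1 libraries 892, 857 and 790, which is 28.4-fold higher (log2 fold 4.83, SE 0.12, limma adjusted p = 3.4e-28). Second was a peak inside Suclg2, a subunit of mitochondrial succinyl-CoA ligase, at chromosome 6, 95511105 to 95511606, which held 25.8, 40.0 and 36.8 reads in NTC and 847, 789 and 716 with shMed4 #1 (log2 fold 4.50, SE 0.12). In both, every shMed4 #1 library was more than an order of magnitude above every NTC library. A peak inside Slc44a1, a choline transporter, rose from 41.6 ± 10.9 to 821 ± 10.4 (means ± SD of n = 3 libraries, as for all such values below; log2 fold 4.30, SE 0.12), at chromosome 4, 53539401 to 53539902.

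Other large gains lay in genes of varied roles. The peak inside Rbms3, an RNA-binding protein gene, at chromosome 9, 117152259 to 117152760, rose from 28.8 ± 9.6 to 598 ± 46.9 (4.38, SE 0.14). Robo2, a receptor of axon guidance, held a peak that rose from 17.4 ± 6.6 to 334 ± 13.6 (4.24, SE 0.17). Brinp3, a neural gene that retinoic acid induces, rose from 14.1 ± 6.1 to 233 ± 22.1 (4.03, SE 0.22), and Gabra5, a subunit of the receptor for the transmitter GABA, from 25.9 ± 4.6 to 380 ± 22.9 (3.84, SE 0.13). The other members of the top 12 were Sash1, a signalling scaffold (4.21), the phosphatase-like receptor Ptprq (4.04), Dip2a (3.98), Vash2, a vasohibin (3.88), and the peak nearest to H2al1n (4.00). H2al1n belongs to a family of near-identical histone variant genes on X, so its reads could be split between copies. Of these 12 peaks, 11 lay inside the gene and all 12 were in the weakest 10%, with NTC means from 8.91 to 41.6. Each passed the naming limit of 50 reads only through its shMed4 #1 libraries. Their low control height thus follows from the selection and is not a separate result.

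The largest falls took peaks of varied control height to low levels. The lowest log2 fold was 34.4 kb from Dio3, whose enzyme inactivates thyroid hormones, at chromosome 12, 110244559 to 110245060. It held 397, 346 and 353 normalised reads in NTC and 24.8, 34.1 and 41.8 with shMed4 #1, which is 10.8-fold lower (log2 fold -3.43, SE 0.17, limma adjusted p = 3.9e-19). The second was inside Itga8, an integrin subunit, at chromosome 2, 12174669 to 12175170, with 153, 175 and 155 reads in NTC and 13.6, 19.5 and 11 with the hairpin (-3.40, SE 0.24). No library of one group reached the range of the other at either peak, which their choice by fold favours. The peak inside Lrrc9 was the strongest of the 12 in NTC and fell from 763 ± 25.5 to 107 ± 12.6 (-2.83, SE 0.09).

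The other falls of that size lay inside or near genes of varied kinds. They were inside Adgb, an androglobin (-3.05), Gas7, a cytoskeletal adaptor (-3.03), Cobll1 (-2.88), Emb, the adhesion protein embigin (-2.88), Camta1, a transcription activator (-2.86), and Metap1d, a mitochondrial peptidase (-2.74). Outside a gene they were nearest to Sdk1, an adhesion protein of synapses (-2.96), Ism1, a secreted protein (-2.85), and Stfa3 (-2.83). Stfa3 is one of a cluster of similar stefin genes, so its nearest gene is uncertain. These 9 peaks had NTC means from 98.5 to 317 and shMed4 #1 means from 12.2 to 42.6, so they passed the naming limit on reads only through NTC. Itga8, Cobll1, Ism1 and Metap1d are on chromosome 2, and Dio3 and Lrrc9 on chromosome 12.

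Both sets were chosen by their fold with shMed4 #1, so values with shMed4 #4 are a description only. At the Ust peak shMed4 #4 held 536 ± 63.3 normalised reads and at the Rbms3 peak 802 ± 31.7, and the 12 gains had log2 folds from 2.38 to 4.80 against NTC with that hairpin. The 12 falls had log2 folds from -1.79 to -0.06 with it. The peak near Stfa3 held 238 ± 14.7 with shMed4 #4, 248 ± 13.9 in NTC and 34.0 ± 2.3 with shMed4 #1.

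**Figure D2:**
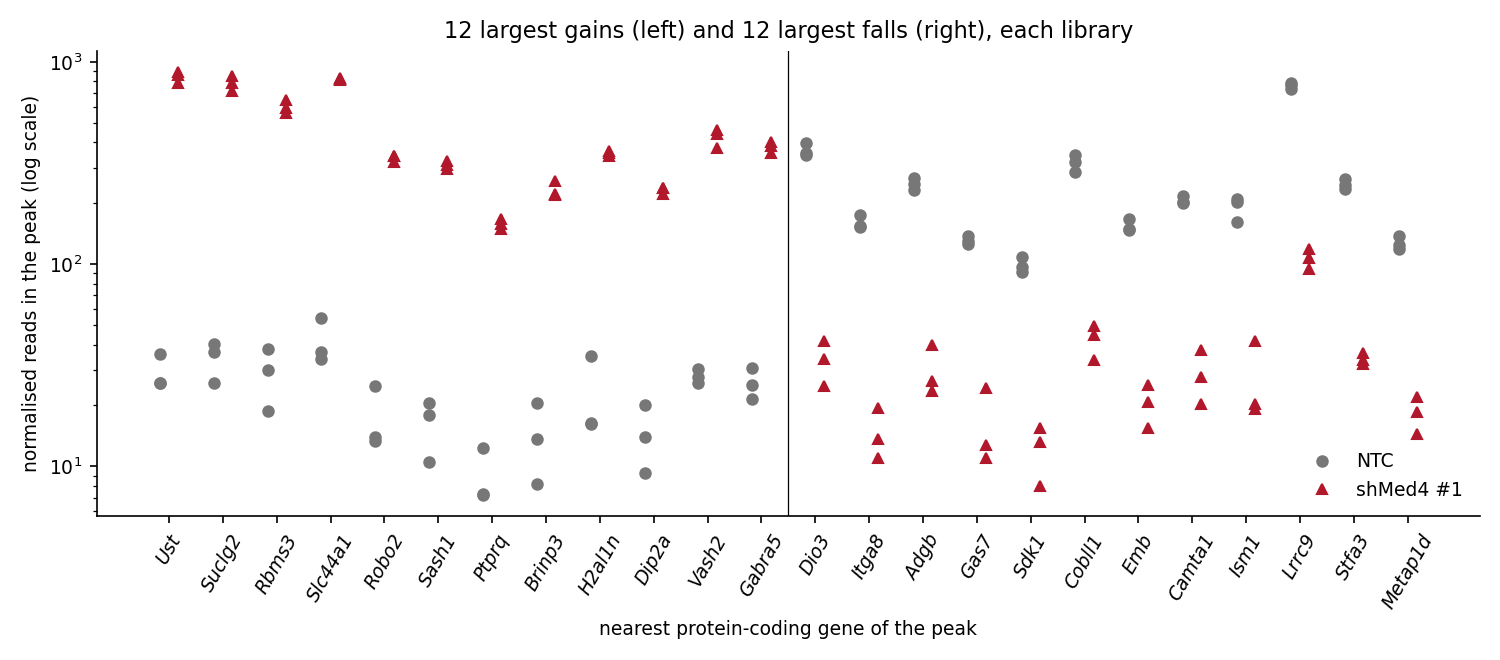
Normalised reads (log axis) in each library at the 12 peaks with the highest and the 12 with the lowest log2 fold under the naming limits, labelled by nearest protein-coding gene. Points are libraries, 3 per group. The groups do not overlap at any of the 24 peaks, which follows from their choice by fold. Over all tested peaks shMed4 #1 lay wholly above NTC at 31.2% and wholly below at 29.4%.

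Among the strongest peaks the changes were smaller and the falls larger than the gains. In the top 10% of NTC height the largest gain was inside Tnn, the matrix protein tenascin N, at chromosome 1, 160150730 to 160151231. It held 1627, 1712 and 1573 normalised reads in NTC and 4530, 4445 and 4365 with shMed4 #1 (log2 fold 1.44, SE 0.05, limma adjusted p = 1.4e-24). Peaks near Piezo2, a mechanically gated channel (1.31), near Dnah5, a ciliary dynein (1.22), inside Myh9, the heavy chain of non-muscle myosin (1.07), and inside Cngb1, a cyclic nucleotide-gated channel (1.03), followed. The largest fall was 1.08 kb from the start of Gsdmd, which encodes gasdermin D, the pore protein of pyroptosis. It held 1911, 2005 and 1875 reads in NTC and 431, 453 and 472 with the hairpin (-2.09, SE 0.06). A peak inside Tspo, the mitochondrial translocator protein, fell from 1758 ± 55.1 to 447 ± 13.0 (-1.97, SE 0.06).

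The next 3 falls were on chromosome 2. They lay inside Tasp1, a protease that cleaves MLL proteins (-1.82), inside Bcl2l1, which encodes the survival factor Bcl-xL (-1.81), and near Gpcpd1, a phosphodiesterase (-1.76). The Bcl2l1 peak, at chromosome 2, 152792386 to 152792887, held 2613, 2637 and 2663 reads in NTC and 761, 771 and 723 with shMed4 #1. It lay 27.6 kb from the Bcl2l1 start. None of these 10 strong peaks had its centre within 1 kb of a gene start. The groups overlapped at none of them, which follows from their choice by fold.

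At gene starts more peaks were lower than higher under the reported scaling, mostly by small steps. A gene-start peak is here one whose centre lies within 1 kb of an annotated start of a protein-coding gene, or of either end of a gene without an annotated start in the table used. Of 14,729 such peaks, 1,597 were higher (10.8%) and 5,184 lower (35.2%), with a median log2 fold of -0.10, against 0.01 for the 132,000 other peaks. They made up 31.1% of the smallest falls but 12%, 4.71%, 4.03% and 2.81% of the larger classes, against 10.0% of all tested peaks. Among gains their share was 7.47% in the smallest class, 2.49% from 1.5 to 2-fold and 6.80% over 4-fold. At gene starts 308 peaks rose at least 2-fold (2.09%) and 150 fell as far (1.02%), against 7.03% and 2.75% of other peaks. The balance at gene starts moved with the scaling. Read at 1 start peak per gene, 1,162 genes were higher and 4,476 lower as reported. Centred on the median level of gene-start peaks, 2,082 were higher and 2,387 lower.

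The library medians of gene-start peaks minus those of other peaks were 0.074, 0.066 and 0.107 in NTC, and -0.090, -0.054 and 0.024 with shMed4 #1, on the log2 scale centred over 9 libraries. All 3 shMed4 #1 libraries lay below all 3 NTC libraries, although shMed4 #1 replicate 3 was nearer to NTC than the others. The difference was -0.12 (two-sided exact permutation p = 0.1, again the lowest possible). It was -0.13 without chromosomes 2 and 12, -0.15 among peaks of like height and -0.15 without shMed4 #1 replicate 3. The gap was clearest among strong peaks. In the strongest 10%, 3.60% of 4,607 gene-start peaks were higher and 45.0% lower, against 28.7% and 31.0% of the 10,066 others. In the weakest 10% the order was the other way, with 56.7% of 372 gene-start peaks higher against 47.6% of others.

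Gains became more frequent with distance from gene starts, most steadily from 10 kb outward. Within 0.25 kb of a start 8.82% of peaks were higher and 37.0% lower. From 20 to 50 kb the shares were 29.1% and 23.8%, from 200 to 500 kb 39.2% and 19.0%, and beyond 500 kb 43.7% and 16.8% of 2,697 peaks. The median log2 fold went from -0.10 at the start through 0.00 at 20 to 50 kb to 0.15 and 0.25 in the last classes. At least 2-fold gains went from 1.92% to 17.5%, whereas at least 2-fold falls stayed between 2.28% and 3.12% from 2 kb outward. Peaks far from genes were also weaker in NTC, with a median of 98.4 normalised reads beyond 500 kb against 1278 within 0.25 kb. Among peaks between the 30 and 90 percentiles of NTC height, a split added after the data were seen, the medians went from -0.09 within 1 kb to 0.03 at 100 to 500 kb and 0.08 beyond 500 kb. Within that range the median NTC value still went from 650 normalised reads within 1 kb to 213 beyond 500 kb. The split therefore does not separate distance from height.

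**Figure D3:**
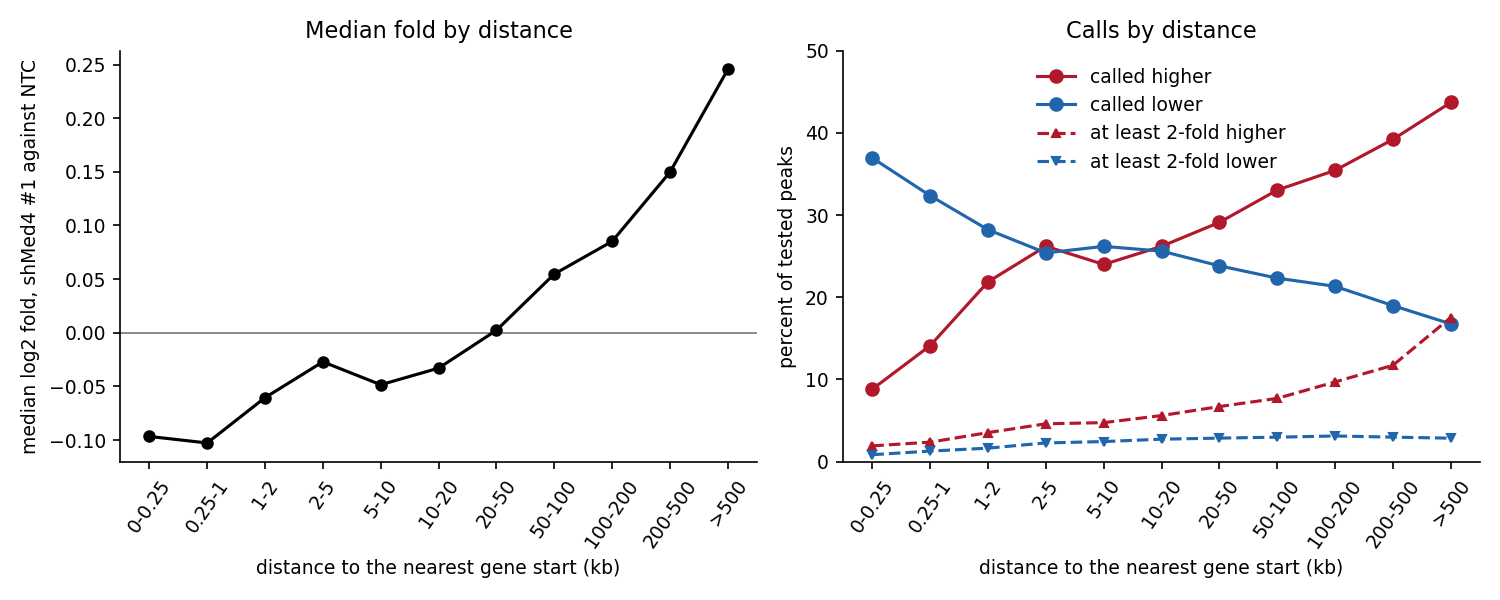
Tested peaks grouped by distance from peak centre to the nearest gene start in kb. Left, median log2 fold of shMed4 #1 against NTC, from -0.10 at starts to 0.25 beyond 500 kb; right, percent of peaks called higher or lower (solid) and at least 2-fold (dashed).

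Outside genes, gains were most frequent far from them. Gene-start peaks left out, the 68,280 peaks inside genes had a median log2 fold of -0.00, with 29.5% higher and 7.13% at least 2-fold higher. Within 10 kb of a gene 23.5% were higher and 4.22% at least 2-fold higher, and from 10 to 100 kb 30.5% and 6.53%. Outside genes the medians were -0.04 within 10 kb of a gene, 0.03 from 10 to 100 kb and 0.12 beyond 100 kb. In that last class 37.4% of 14,229 peaks were higher and 11.3% at least 2-fold higher. The next shares also count gene-start peaks whose centre lies inside a gene. Peaks that fell over 4-fold lay inside genes in 41.0% of cases, against 56.3% of peaks that rose over 4-fold and 52.6% of all tested peaks.

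Of the 8 gene-start peaks that rose most under the naming limits, 7 were in the weakest 10% of the control. Those 7 passed the limit on reads only through their shMed4 #1 libraries, so that count follows from the selection. Spx, which encodes the peptide hormone spexin, was the exception: its start peak at chromosome 6, 142412922 to 142413423, held 143, 139 and 149 normalised reads in NTC and 1547, 1491 and 1417 with shMed4 #1 (log2 fold 3.36, SE 0.06, limma adjusted p = 3.1e-31). Cavin4, a caveolar coat protein of muscle, rose from 43.7 ± 7.5 to 514 ± 22.0 (3.54, SE 0.12). Both promoters are printed above, with 7 CG dinucleotides each. The starts of Brinp3 (3.77), Sash1 (3.64), the kinase gene Map3k9 (3.41), the synapsin gene Syn1 (3.40) and Pwwp3b (3.34) rose as well. For Jph1, a junctophilin (3.38), the peak lies at an end of a gene without an annotated start. Syn1 held 25.8, 20.5 and 27.8 reads in NTC and 259, 266 and 279 with the hairpin. The Brinp3 and Sash1 starts lie in the raised stretches described below.

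Gene-start peaks that fell most were led by Sqor and Dnmt3b. Sqor encodes the mitochondrial sulfide oxidase, and its peak at chromosome 2, 122770961 to 122771462, held 131, 130 and 135 reads in NTC and 23.2, 17 and 17.6 with shMed4 #1 (log2 fold -2.73, SE 0.26). Dnmt3b encodes a DNA methyltransferase that sets new methylation, and its start peak at chromosome 2, 153649175 to 153649676, held 333, 362 and 351 reads in NTC and 53.6, 47.9 and 61.6 with the hairpin (-2.67, SE 0.15, limma adjusted p = 1.1e-17). At Dnmt3b the fall was 6.35-fold, and no library of one group came near the other, which the choice by fold favours. S100a8, a calgranulin of inflammation, fell from 551 ± 43.0 to 156 ± 9.3 (-1.81, SE 0.10). The rest were Ttll9, a tubulin ligase-like gene (-2.14), Mpp7, a polarity scaffold (-2.07), the phosphodiesterase Pde4b (-1.84), Smagp (-1.79) and the kinase Stk39 (-1.77). The Mpp7 peak lies at an end of a gene without an annotated start. Sqor, Dnmt3b, Ttll9 and Stk39 are on chromosome 2.

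Promoters of genes whose start peaks moved by at least 1.5-fold were poorer in CG than the rest. Of the 12,117 genes with a gene-start peak, 9,609 (79.3%) were matched by symbol to a RefSeq promoter of 300 bases whose start lay within 1 kb of the peak centre. The median count of CG dinucleotides was 21 over all matched promoters, 7 over the 307 whose peak rose at least 1.5-fold and 14 over the 275 whose peak fell as far. Fewer than 5 CG were found in 29.6% and 22.5% of these sets, against 7.28% of all matched. Among promoters with fewer than 5 CG 26.6% of start peaks were higher and 27.1% lower, whereas with 30 or more 4.67% were higher and 41.0% lower. Their median NTC values were 254 and 1392 normalised reads, so CG content and height go together here.

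Splits by CG content were added after the data were seen. Letters of known motifs were counted on both strands, without regard to overlap between motifs: the AP-1, TEAD, ETS, GC box, NF-Y and TATA letters given above, the E-box CACGTG, the cyclic AMP response element (CRE) TGACGTCA and the CArG box, which can contain the TATA letters. The AP-1 letters were in 17.6% of promoters that rose at least 1.5-fold, 8% of those that fell and 5.92% of all matched. Among promoters with fewer than 10 CG the shares were 27.0% of 178, 13.9% of 115 and 16.4% of 1,593, and among those with 10 or more 4.65%, 3.75% and 3.83%. The TEAD letters were in 19.2%, 16.4% and 12.1%, and TATAAA in 15.3%, 11.3% and 6.99%. The GC box was in 39.1%, 53.8% and 65.6%, and the ETS letters in 5.54%, 6.18% and 18.9%. Among promoters with fewer than 10 CG the GC box was in 18%, 21.7% and 21.2%, the TEAD letters in 18.5%, 22.6% and 18.6%, TATAAA in 21.9%, 13.9% and 16.0% and the ETS letters in 2.81%, 4.35% and 4.39%. With 10 CG or more the GC box was in 68.2%, 76.9% and 74.5%, the TEAD letters in 20.2%, 11.9% and 10.8%, TATAAA in 6.20%, 9.38% and 5.2% and the ETS letters in 9.30%, 7.50% and 21.8%. CCAAT was in 37.8%, 37.8% and 39.5%, the E-box in 7.17%, 5.45% and 10.1%, CRE in 1.95%, 2.18% and 3.44% and the CArG box in 2.28%, 1.09% and 1.23%. Of all 32,851 promoters in the table, 7.81% held the AP-1, 14.7% the TEAD, 8.86% the ETS, 35.7% the GC box, 37.4% the CCAAT, 7.15% the E-box, 1.79% the CRE, 13.6% the TATA and 1.63% the CArG letters. No test was made of these shares.

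Several chromosomes differed from the rest in their median fold, chromosome 2 most of all. On chromosome 2, 55.5% of 11,557 tested peaks were lower and 13.6% higher, with a median log2 fold of -0.32 and 891 falls of at least 2-fold. It held 7.88% of tested peaks, 17.6% of falls and 23.6% of falls of at least 2-fold, but 3.67% of gains of that size. Chromosome 12 was next, with a median of -0.24, 48.1% lower and 16.8% higher, and chromosome 18 had a median of -0.13. Chromosomes 2 and 12 together held 11.8% of tested peaks and 31.3% of falls of at least 2-fold. Chromosome 1 was highest, with a median of 0.13, 38.3% higher and 12.9% lower, followed by X (0.11) and chromosomes 6 (0.10), 9 (0.08) and 7 (0.07). Chromosomes 1, 6 and X held 14.7% of tested peaks and 21.9% of gains of at least 2-fold.

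Library values lay close together within groups. Relative to the median of the whole library, chromosome 2 lay at 0.146 to 0.148 on the log2 scale in the NTC libraries and at -0.158 to -0.154 in the shMed4 #1 libraries, a difference of -0.30. The same difference was -0.23 on chromosome 12, -0.12 on chromosome 18, 0.15 on chromosome 1, and 0.12 on both chromosome 6 and X. On 16 of 20 chromosomes the shMed4 #1 libraries did not overlap the NTC libraries, the exceptions being 5, 13, 14 and 17 (exact permutation p = 0.1 for a single chromosome, the smallest possible). The median log2 fold of gene-start peaks was below that of other peaks on all 20 chromosomes. On 8 both were below 0, and on 12 gene-start peaks were below 0 and other peaks above it. The medians of gene-start and other peaks were -0.37 and -0.30 on chromosome 2, -0.34 and -0.22 on chromosome 12, and -0.00 and 0.15 on chromosome 1. Reads in a region also scale with the number of copies of that DNA in the cells, copy number was not measured, and its part in these shifts was not tested.

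**Figure D4:**
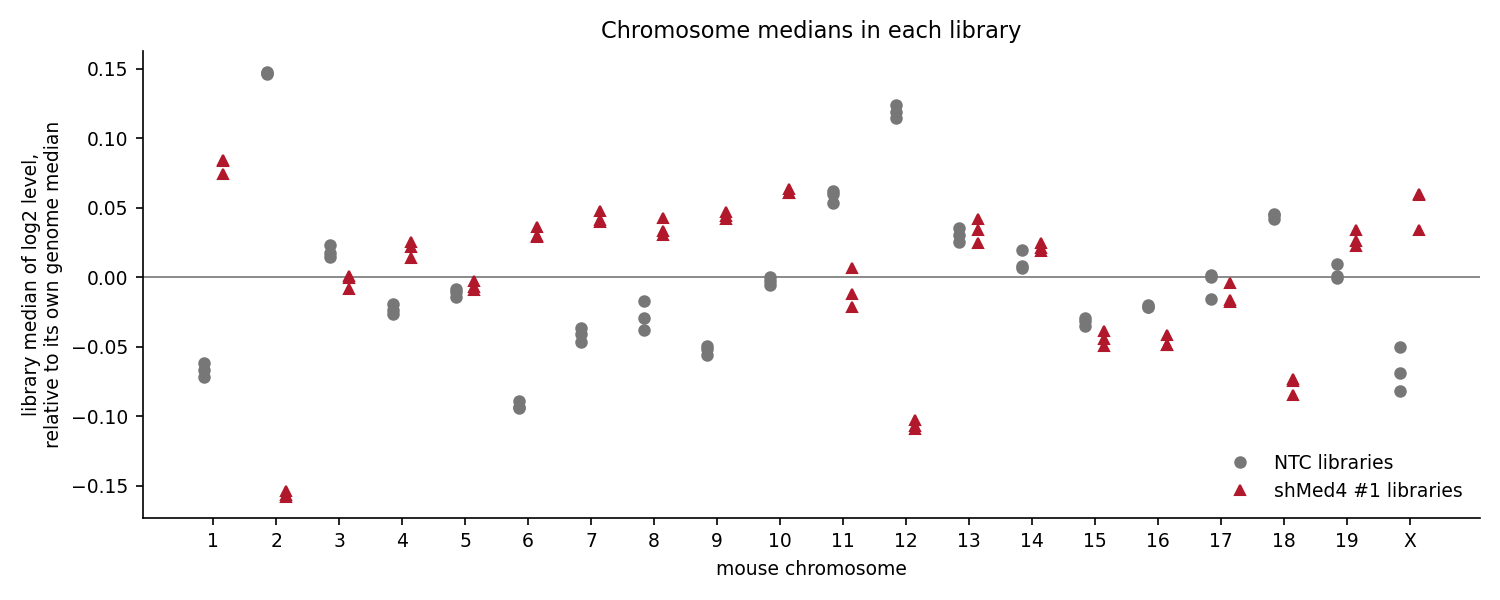
Median log2 level of the peaks of each chromosome in each NTC library (circles) and shMed4 #1 library (triangles), centred per peak over 9 libraries and given relative to the library's median over the genome. Chromosomes 2 and 12 lie lowest with shMed4 #1 relative to NTC and chromosome 1 highest.

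Windows of 10 Mb showed that some shifts were even along a chromosome and others were not. Of 269 windows with at least 20 tested peaks, shMed4 #1 lay above NTC in every library in 142 and below in 99. All 19 windows of chromosome 2 and 11 of 12 on chromosome 12 lay below, and all 20 of chromosome 1 and all 15 of chromosome 6 above. Along chromosome 2 the medians ran from -0.17 to -0.49, and the lowest window, from 180 to 190 Mb, had 74.0% of 262 peaks lower. The highest median, 0.52, was on chromosome 1 from 140 to 150 Mb, where 32.3% of 155 peaks rose at least 2-fold. Chromosome 8 had the widest span, from -0.15 to 0.49, followed by X with -0.10 to 0.51 and chromosome 16 with -0.29 to 0.28.

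A small share of calls, 0.993% of gains and 0.832% of falls, lay in unbroken stretches. A stretch is here a run of at least 20 tested peaks in a row that were all called in the same direction. There were 17 raised stretches with 406 peaks on 10 chromosomes, a median length of 853 kb, a median NTC value of 42.1 normalised reads and a median log2 fold of 1.37. There were 12 lowered stretches with 304 peaks, 9 on chromosome 2, 2 on chromosome 12 and 1 on X, with a median length of 187 kb, a median NTC value of 315 and a median log2 fold of -0.66. Raised stretches were thus longer in kb, weaker in the control and larger in fold, but they held at most 41 peaks against 50 in lowered ones. Weak peaks need larger folds to be called, so low height and large fold are not separate traits here.

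The raised stretch with most peaks covered Rbms3 at chromosome 9, 116559894 to 117717831. Each of its 41 peaks rose at least 2-fold, with log2 folds from 1.18 to 4.38 and a median that went from 18.7 to 129 normalised reads. Next came 31 peaks around the zinc finger gene Zfp536 (median log2 fold 1.33), 30 over Gpc6, a glypican, and Dct, a melanin enzyme (2.27), and 26 over Astn1 and Pappa2 (1.68). Stretches of 25 and 23 peaks surrounded the chemokine gene Cxcl12 (1.41) and the glutamate receptor gene Grm7 (1.32). The stretches at Brinp3 (21 peaks, 2.92), Sash1 (21 peaks, 2.68) and Flrt2, an adhesion gene (20 peaks, 2.42), were, with that at Rbms3 (2.77), the 4 with the largest median folds. Others lay at Pkhd1, Pappa, Arhgap24 and Mapk10, Grik2, Trabd2b and the lymphatic growth factor gene Vegfc (20 peaks, 1.04). The stretch at Mical3 was the exception in height, with a median NTC value of 623 and a median log2 fold of 0.61.

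The lowered stretch with most peaks held 50 over Ube2v1, Tmem189 and Cebpb, a transcription factor of adipocytes and macrophages, at chromosome 2, 167627175 to 167828741. Its median went from 850 to 568 normalised reads (median log2 fold -0.55), and the log2 folds of its peaks ran from -2.22 to -0.20. Further lowered stretches of chromosome 2 covered the region from Rims4 to Stk4 (31 peaks, -0.85), Bmp7, a bone morphogenetic protein, to Rbm38 (25 peaks, -0.72), the laminin gene Lama5 (25 peaks, -0.52), Slpi and Sdc4 (24 peaks, -0.67), the collagen gene Col5a1 (20 peaks, -0.98) and the sulfatase gene Sulf2 (20 peaks, -0.78). On chromosome 12 they covered Cep170b and Ahnak2 (22 peaks, -0.37) and Ldah and Hs1bp3 (20 peaks, -0.58).

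At the Med4 locus the start peak was slightly lower. The peak at the Med4 start, at chromosome 14, 73509724 to 73510225, held 559, 558 and 516 normalised reads in NTC and 424, 467 and 462 with shMed4 #1, which is 1.21-fold lower without overlap (log2 fold -0.27, SE 0.07, limma adjusted p = 0.0024). The median over all gene starts was -0.10. Of the other 5 peaks nearest to Med4, 3 lie about 60 kb away and were called higher. The peak at 73449072 to 73449573 rose from 137 ± 5.8 to 279 ± 9.1 (1.02, SE 0.11), that at 73450159 to 73450660 had a log2 fold of 0.36, and that at 73451279 to 73451780 one of 0.17, where the groups overlapped. The peaks at 73474755 to 73475256 (0.10) and 73510689 to 73511190 (0.16) were not called.

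Gene groups were read at 1 gene-start peak per gene, the strongest where a gene had several. Over all 12,117 genes with such a peak, 9.59% were higher and 36.9% lower, with a median log2 fold of -0.10. Centred on the median level of gene-start peaks, the same genes gave 2,082 higher and 2,387 lower in place of 1,162 and 4,476, so the balance of a group moves with the scaling. Group counts under that centring are given beside the reported ones where the balance turns. Removing the median shift of each chromosome is an alternative added after the data were seen. Of 32 measured Mediator subunits 1 was higher and 10 lower, with a median of -0.11, and 5 were higher and 3 lower when centred on gene-start peaks. Besides Med4, the lower members were Med6 of the head module, from 1509 ± 68.6 to 1169 ± 18.4 reads (-0.37), Med22 (-0.42), whose peak is shared with the ribosomal protein gene Rpl7a, and Med1, Med11, Med12, Med16, Med19, Med20 and Med31. The Mediator kinase cyclin Ccnc was the only one higher (0.13). Med22 and Med19 lie on chromosome 2 and Med6 on chromosome 12. With the median shift of each chromosome removed, 1 was higher and 9 lower.

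Epithelial junction and keratin genes included gains at a desmosomal and a keratin gene. Of 14 measured members 6 were higher and 4 lower, with a median of 0.05. Pkp1, a plakophilin of desmosomes, held 125, 89.3 and 93.3 normalised reads in NTC and 571, 507 and 652 with shMed4 #1 (log2 fold 2.49, SE 0.11). The simple-epithelial keratin gene Krt18 held 170, 162 and 160 in NTC and 379, 347 and 379 with the hairpin (1.16, SE 0.09). No library overlapped between groups at either gene, which their choice by fold favours. The splicing regulator Esrp2 (-0.71) and the protease gene St14 (-0.59) were lower. Of 14 measured mesenchymal and EMT factor genes 2 were higher and 8 lower, with a median of -0.17. Prrx1, a mesenchymal homeobox factor, rose from 19.9 ± 3.4 to 129 ± 3.5 reads (2.66, SE 0.20) and the surface antigen gene Thy1 rose by 0.85, whereas Vim, encoding vimentin, fell from 4155 ± 227 to 3072 ± 18.1 (-0.43) and Twist1 fell by 0.41 on the log2 scale. Vim is on chromosome 2 and Twist1 on chromosome 12. With chromosome shifts removed 5 of these 14 were lower.

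Contractile and matrix genes moved both ways. Among 18 smooth muscle and contractile genes 3 were higher and 5 lower (median -0.06), or 5 and 4 centred on gene-start peaks. Acta2, smooth muscle actin, held 139, 117 and 141 reads in NTC and 613, 668 and 622 with shMed4 #1 (log2 fold 2.26, SE 0.08), and the myosin light chain gene Myl9 had a log2 fold of 1.33. Tagln, encoding transgelin (-0.60), and the kinase gene Mylk (-0.36) were lower. Of 22 collagens and matrix proteins 4 were higher and 11 lower (median -0.17), with Postn, encoding periostin, up from 267, 266 and 260 to 573, 601 and 584 and Lama3 higher by 0.53. Thbs1, encoding thrombospondin, went from 331 ± 10.1 to 128 ± 28.2 (-1.39) and lies on chromosome 2.

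Matrix proteases, their inhibitors and crosslinkers included some of the largest start peak gains of these groups, from low control levels. Of 30 measured members 9 were higher and 7 lower (median -0.05), but 7 and 14 when centred on other peaks and 8 and 11 with chromosome shifts removed. Adam19, a membrane metalloprotease whose promoter is shown above, held 23.4, 33.9 and 44.2 reads in NTC and 242, 258 and 255 with shMed4 #1 (log2 fold 2.90, SE 0.16). The aggrecanase gene Adamts5 rose from 41.4 ± 5.6 to 306 ± 32.2 (2.86, SE 0.13). Both starts, like those of Prrx1 above and Rbms3 below, were in the weakest 10% in NTC. In that class 39.8% of 372 gene-start peaks rose at least 2-fold, and a site may be listed only through a hairpin group. These gains are thus not traits of the gene groups. In the other direction the collagen crosslinking oxidase gene Lox fell from 224 ± 4.7 to 74.2 ± 4.5 (-1.58, SE 0.13), and Mmp19 from 388 ± 13.4 to 147 ± 38.4 (-1.42, SE 0.12). Of 12 integrins 3 were higher and 4 lower (median -0.09), or 4 and 3 centred on gene-start peaks. The named members were Itgb3 (1.34), Itga2 (0.57), Itgav (-0.41) and Itga6 (-0.32). Itgav and Itga6 are on chromosome 2, and with the medians of 10 Mb windows removed 2 integrins were higher and 1 lower.

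Signalling groups had medians close to that of all genes. Of 24 YAP and TEAD targets 3 were higher and 7 lower (median -0.10), or 6 and 6 centred on gene-start peaks, with Rbms3 far above the rest at its start peak, from 34.7, 33.9 and 24.5 reads to 282, 291 and 236 (3.09, SE 0.15), Ptpn14 at 0.42, Ccn2 at -0.57 and Fjx1 at -0.77. TGF-beta and BMP pathway genes had 1 higher and 14 lower of 33 (median -0.11), or 2 and 7 with chromosome shifts removed. Among them the latency protein gene Ltbp1 was higher (0.20), and the BMP antagonist gene Chrd (-0.56) and the target Id1 (-0.41) were lower. Tumour dormancy regulators had 2 higher and 13 lower of 27 (median -0.10). The higher members were Postn, also a matrix gene, and the proton-sensing receptor Gpr65 (0.67), and Lox and Thbs1 were the lowest. Postn, Lox and Thbs1 stand in more than 1 list.

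Proliferation and inflammation groups had 42.3% to 51.7% of members lower, against 36.9% of all genes, and these shares moved with the scaling. With chromosome shifts removed, 25 of 49 cell cycle and 13 of 26 interferon genes were lower. In that setting 11 of 29 NF-kB and 15 of 28 AP-1 group genes were lower, against 4,586 of all 12,117 genes. Cell cycle and replication genes had 1 higher and 21 lower of 49 (median -0.13): Mcm3, a subunit of the replicative helicase, was 0.12 higher, and the clamp gene Pcna (-0.52) and the mitotic kinase gene Aurka (-0.53), whose peak is shared with Cstf1, were lowest, both on chromosome 2. Centred on gene-start peaks the counts were 2 and 10. Interferon response genes had 1 higher and 11 lower of 26 (median -0.12), or 4 and 4 centred on gene-start peaks, with the immunoproteasome gene Psmb8 higher (0.39) and Sting1, the adaptor of cytosolic DNA sensing (-0.67), and Ifit1 (-0.32), whose peak is shared with Ifit1bl2, lower. NF-kB regulators and inflammatory targets had 3 higher and 15 lower of 29 (median -0.16), or 6 and 7 centred on gene-start peaks. Ccl20, a chemokine gene, held 584, 687 and 663 reads in NTC and 239, 244 and 200 with shMed4 #1 (log2 fold -1.50, SE 0.09), Cxcl5 was at -0.73, and the inhibitor of apoptosis gene Birc3 (0.97) and the adhesion gene Vcam1 (0.87) were higher. AP-1 and immediate early factors had 2 higher and 13 lower of 28 (median -0.12), or 5 and 5 centred on gene-start peaks, with Atf3 (0.34) and Nr4a1 (0.33) higher and Klf6 (-0.37) lower.

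**Figure D5:**
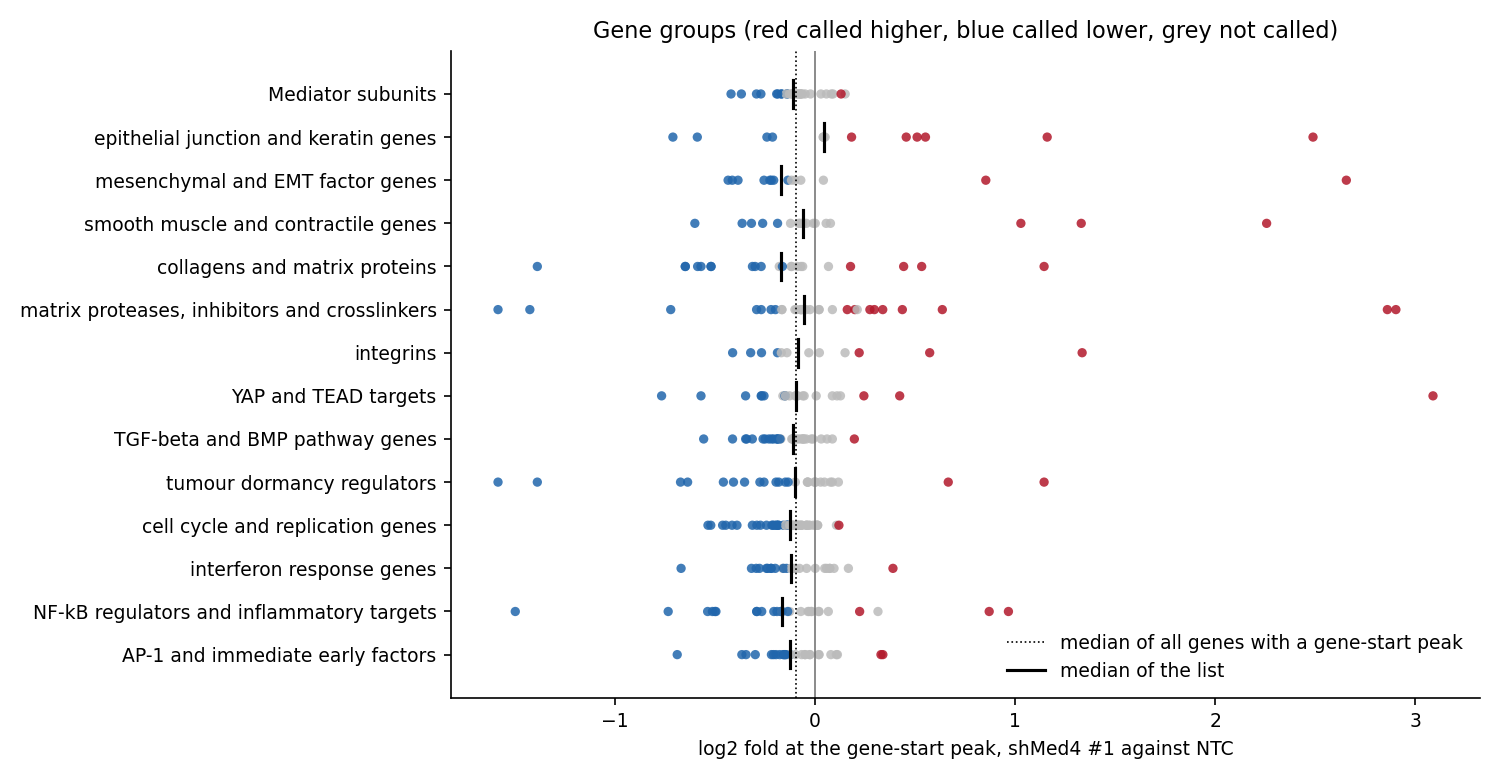
Log2 fold of shMed4 #1 against NTC at the gene-start peak of each measured member of 14 gene groups. Red points were called higher, blue lower and grey not called; black bars are group medians, from -0.17 to 0.05, beside the median of all 12,117 genes (-0.10, dotted line).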

How the data were processed

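ATAC-seq libraries of D2A1-d cells were made by the submitters, with 3 each for NTC, shMed4 #1 and shMed4 #4. Per the submitters' processing notes, Trim Galore, BWA, MACS2, featureCounts and Subread were used with mm10 (GRCm38). Their versions, and whether peaks were called on pooled libraries, are not given in the sources used here. The deposited values are a normalised signal per peak, which the file's name credits to DESeq2. Each value was a whole number of reads times 1 step per library (100% within 1e-4), so depth was recovered.

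Values were tested as log2(value + 1) with limma 3.58.1 (trend, R 4.3.3), which was fitted over 9 libraries to peaks with a mean of at least 10 (146,729 of 146,734), with Benjamini-Hochberg adjustment at 0.05. Fold changes are on that scale. Library medians were compared by exact permutation. The fit was checked on drawn counts of known fold. edgeR 4.0.16 and DESeq2 1.42.0 on recovered reads, other scalings, filters, pseudocounts and left-out libraries were alternatives.

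Genes came from RefSeq tables of GRCm38.p6, where 17,273 of 21,627 protein-coding genes (79.9%) had an annotated start. Genes were named by a fixed rule: 12 highest and 12 lowest folds, 8 and 8 at gene starts, 5 and 5 in the strongest 10%, 2 and 2 of each list, all Mediator subunits and all Med4 peaks. The members, lists and rules were chosen with earlier results of these data known. Replicate numbers were not used to pair libraries in the reported fit. Deviations of same-numbered NTC and shMed4 #1 libraries correlated at 0.018, 0.008 and 0.010, and those of other-numbered ones at -0.017 to 0.006. These small values do not settle whether libraries were made in pairs. A few named items are not reported here.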

Additional observations from a re-analysis of the deposited data

How the results depend on the processing

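With 1 library left out in turn, calls numbered 68,565 to 71,998 (36,943 to 38,504 higher, 31,170 to 33,494 lower, 9,410 to 9,983 at least 2-fold higher, 3,722 to 4,086 at least 2-fold lower), gene-start minus other peaks was -0.15 to -0.09, strongest minus weakest 10% was -0.64 to -0.57, and 17 to 18 chromosomes did not overlap. Under the other settings calls numbered 61,037 to 84,898, of which 33,639 to 49,652 higher and 23,969 to 47,654 lower; the 23,969 came from centring on the median deviation of gene-start peaks. At least 2-fold gains numbered 8,214 to 11,630 and falls 2,666 to 4,922. With the replicate block 79,653 peaks were called, and the block changed no call among 111 named peaks. Strongest minus weakest 10% was -0.51 with a pseudocount of 10, -0.023 with height from NTC and shMed4 #1, and 0.083 with height from shMed4 #4, where the ranking no longer uses NTC alone. With 10 Mb window medians removed, 98 of 111 named peaks kept direction and call, 10 lost the call and 3 turned: Ccnc to -0.29, Id1 to 0.013 and Mcm3 to -0.11. With chromosome medians removed, 98 kept both, 11 lost the call, and Mcm3 turned to -0.028 and Med19 to 0.011. In the other settings 103 to 111 kept both and 0 turned. The smallest exact p that 3 libraries against 3 can give is 0.1.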
